A study of Mus musculus with 4 samples.

Results

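The genes described here encode molecular chaperones: the heat shock proteins, the J-proteins (DnaJ family) and the subunits of the cytosolic chaperonin CCT. They were compared between TS1 and TS2, a pair of mouse lines whose labels name a CD4-positive T lymphocyte as their origin. Members were the genes with a single-gene probe set whose symbol in the array annotation begins with Hsp (Hspg2, a matrix proteoglycan, left out), Dnaj or Cct2 to Cct8. This gave 81 of 19938 genes, each read by its brightest probe set over all 4 arrays. Neither line was treated, both grew in Iscove-Dulbecco's medium with murine interleukin-9, a T cell growth factor, and RNA came from biological duplicates A and B of each line, 1 array per duplicate (n = 2 per line). No further genotype, animal age or clone history is given in the sources used here, and nothing in them says how far apart the duplicates were grown. The p-values set a line difference against the spread between these arrays, moderated by the spread over all genes.

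Chaperones help proteins to fold and to hold their fold. Hsp70 proteins bind and release unfolded segments in a cycle driven by ATP, J-proteins deliver substrates and stimulate that ATP use, and Hsp110 proteins and other exchange factors reset the cycle. Hsp90 acts late, on kinases and steroid receptors among others, while the ring-shaped chaperonins, Hsp60 with its lid Hsp10 in mitochondria and CCT in the cytosol, enclose their substrates, with actin and tubulin as classic CCT clients. Heat shock factor 1 raises the cytosolic set when proteins unfold, and the unfolded protein response raises the set of the endoplasmic reticulum, the compartment where secreted and membrane proteins fold.

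Elements of both control systems were searched for in the members' promoters. Matches are printed for the chaperonin pair Hspe1 and Hspd1, for the called genes Dnaja4 and Dnaja1, and for the 3 genes with an endoplasmic reticulum element, none of which passed the test. Promoters came from RefSeq (build GRCm38.p6), each reaching from 250 bases before to 50 after a start. Of the 81 members, 67 had at least 1 promoter in that table, and Cct4, Dnajc2, Dnajc5, Dnajc5b, Dnajc11, Dnajc12, Dnajc18, Dnajc22, Dnajc30, Hsp90aa1, Hspa8, Hspa9, Hspa13 and Hspb2 were not matched. Each motif was searched on both strands. The heat shock element of 3 units, GAANNTTCNNGAA or its reverse TTCNNGAANNTTC, was found for 4 of the 67 genes (Dnajb6, Hspd1, Hspe1 and Hsph1), against 0.662% of all 27025 genes with a promoter and 0.603% of all 32851 promoters. The shorter pair GAANNTTC, which is part of the longer motif, was found for 15 of the 67, against 9.04% of all genes and 7.86% of all promoters. The endoplasmic reticulum stress element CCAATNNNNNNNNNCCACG was found for Dnajc3, Hsp90b1 and Hspa5, 3 of the 67, against 0.137% of all genes and 0.119% of all promoters. Hspd1 and Hspe1 have their heat shock matches in the same bases, counted once for each gene, and the Hsph1 match lies after the start. A match is a description of letters and not a measured binding site.

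Hspe1 and Hspd1, which encode Hsp10 and Hsp60, lie head to head on chromosome 1. Hspd1 has an annotated start within Hspe1, and another that faces the Hspe1 start with 215 bases between the facing starts. One stretch between them, chr1:55088053-55088082 on the plus strand, 95 to 66 bases before the Hspe1 start, holds overlapping matches to the 3-unit heat shock element on both strands, in capitals. It lies within the annotated span of Hspd1.
Hspe1: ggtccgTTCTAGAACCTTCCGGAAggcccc

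Dnaja4, a J-protein known to be heat-inducible, has a pair of the shorter elements, and Dnaja1, a main partner of Hsc70, has 1. Their windows are chr9:54699458-54699487 and chr9:54699496-54699525 for Dnaja4 and chr4:40722333-40722362 for Dnaja1, all on the plus strand, with GAANNTTC in capitals. The Dnaja4 windows lie within that gene's annotated span, since another annotated start lies upstream, and the Dnaja1 window lies within the annotated Gm6297.
Dnaja4, first: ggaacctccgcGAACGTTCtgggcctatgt
Dnaja4, second: gcctcctggcgGAACCTTCcgccggcgccg
Dnaja1: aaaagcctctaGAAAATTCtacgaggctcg

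The stress elements of the endoplasmic reticulum genes are shown in capitals for Hspa5 (chr2:34772010-34772058, plus strand), Dnajc3 (chr14:118937812-118937860, plus strand) and Hsp90b1 (chr10:86705518-86705671, minus strand). In Hsp90b1 there is a match on each strand.
Hspa5: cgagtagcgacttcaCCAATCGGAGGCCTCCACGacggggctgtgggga
Dnajc3: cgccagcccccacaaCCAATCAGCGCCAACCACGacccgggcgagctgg
Hsp90b1: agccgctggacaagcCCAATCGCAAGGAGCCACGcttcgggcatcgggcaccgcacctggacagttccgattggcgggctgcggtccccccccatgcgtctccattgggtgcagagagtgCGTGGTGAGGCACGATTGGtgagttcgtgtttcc

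Values are log2 of the normalized intensity of a probe set, and a difference is TS2 minus TS1 on that scale, so that 1 is a 2-fold difference and a negative value means more signal in TS1. Probe sets differ in brightness for reasons other than the amount of RNA, so levels are compared between arrays and not between genes. The column medians lay between 88.6 and 92.5 on the linear scale. Adjusted p-values are those of limma with Benjamini-Hochberg adjustment over all 19938 genes, and an exact permutation test of 2 against 2 arrays could not go below p = 0.333. T cell markers were uneven. Of 11 analysed, 6 lay above the olfactory receptor level (defined further on) on both TS1 arrays and 7 on both TS2 arrays. Their summed signal was 9.15 to 10.96 in TS1 and 13.48 to 13.66 in TS2. By limma 3 passed, all higher in TS2. These were Cd3e (74.02-fold, adjusted p = 9.4e-05), Ptprc (65.63-fold, adjusted p = 9.4e-05) and Cd247 (7.11-fold, adjusted p = 0.000401). Ptprc lay below the olfactory receptor level on both TS1 arrays, so the size of its difference is not settled. Cd3g read 10.52 on TS1 A and 6.07 on TS1 B, against 10.39 and 11.98 in TS2 (adjusted p = 0.281). Cd4 itself was dim in both lines (5.37 and 5.21). The mast cell list of 4 genes summed to 12.85 to 13.04 in TS1 and 13.11 to 13.30 in TS2, mostly through Fcer1a. Within it Kit was higher in TS1 (adjusted p = 0.00153), and Mcpt4 read 5.45 and 5.33 in TS1 and 6.60 and 10.10 in TS2 (adjusted p = 0.158). The other lists were low: B cell (3 genes) 6.50 to 6.76 over all arrays, myeloid (5) 7.13 to 7.34, fibroblast (3) 7.78 to 7.97 and NK cell (3) 7.14 to 9.47, the last carried by Eomes, which was higher in TS1 (adjusted p = 0.0017), while Ncr1 was higher in TS2 (adjusted p = 0.0155). The part of such identity genes in the chaperone differences was not tested. In bulk RNA, fewer cells of a type and less RNA per cell cannot be told apart.

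Cytosolic Hsc70 and Hsp90 and the BiP of the endoplasmic reticulum showed no difference that passed, while some J-proteins, CCT subunits and an Hsp110 gene differed between the lines. Of the 81 genes, 15 passed an adjusted p of 0.05, 4 higher in TS2 and 11 higher in TS1, and 66 did not pass. Over all genes 13.5% passed, 5.05% higher in TS2 and 8.45% higher in TS1. With renewed quantile normalization 4 passed with TS2 higher and 6 with TS1 higher. The 15 differences ran from 1.31-fold to 2.13-fold, and 2 of them reached 2-fold, Dnajc24 and Dnaja4. Across the whole series 5.19% of genes both passed and reached 2-fold. The median difference of the 81 genes was -0.05, against 0.01 for all genes, and their median absolute difference was 0.20, against 0.16.

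J-proteins made up 45 of the 81 members and 12 of the 15 called genes (4 higher in TS2, 8 higher in TS1). The other calls were 2 CCT subunits and 1 Hsp110 gene. No Hsp90, Hsp70, Hsp60, Hsp10 or small heat shock gene passed by limma (2 of these 21 genes, Hspd1 and Hspe1, had an unadjusted p under 0.05). Over all 19938 genes 5862 had an unadjusted p under 0.05. Arrays lay fully apart between the lines for 26 members with TS2 higher and for 39 with TS1 higher, while 16 overlapped. Over all genes 58.4% were apart in this way, 29.1% with TS2 higher and 29.3% with TS1 higher.

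**Figure D1:**
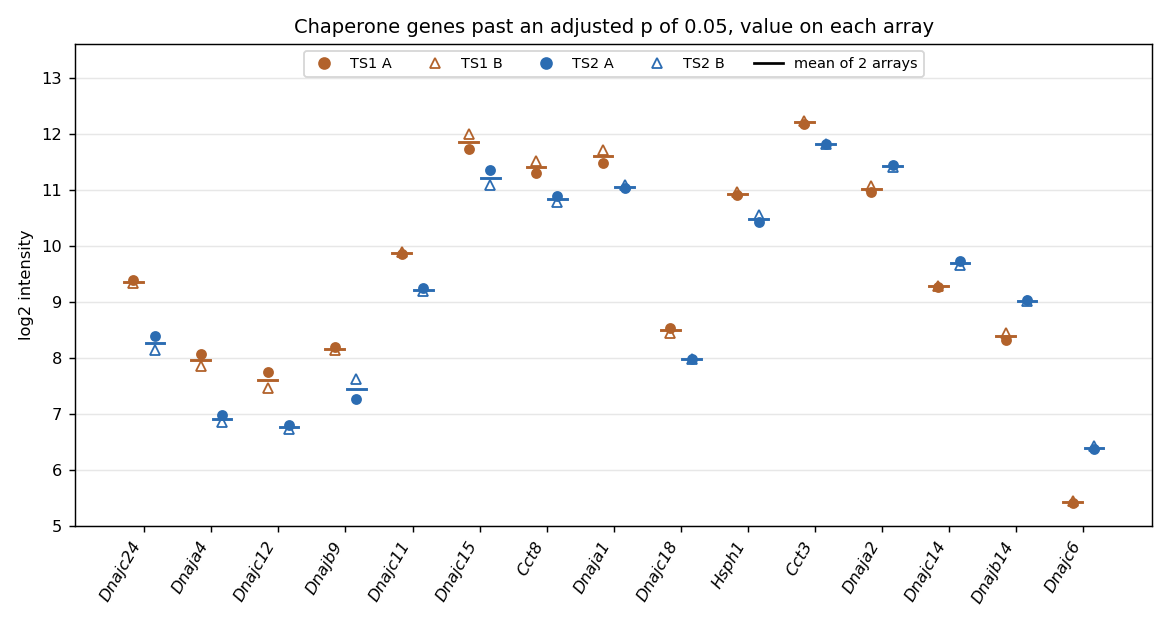
The log2 intensity of the 15 chaperone genes past an adjusted p of 0.05 is plotted for each array, TS1 in orange and TS2 in blue, with circles for duplicate A, open triangles for duplicate B and bars for the mean of 2 arrays. The genes run from the largest excess in TS1 (Dnajc24, a difference of -1.09) to the largest measured excess in TS2 (Dnajc6, 0.97), and in each gene shown the TS1 and TS2 arrays do not overlap.

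These calls rest on few arrays. Dnaja4, Dnajc24 and Dnajc6 kept their calls in each of the 4 fits that omit an array. Their adjusted p ran from 0.0163 to 0.0494 for Dnaja4, 0.0199 to 0.0342 for Dnajc24 and 0.0172 to 0.0349 for Dnajc6. Without TS1 A, 7 of the 15 lost their calls, with adjusted p from 0.0581 to 0.120 (Cct3, Dnaja2, Dnajb9, Dnajc14, Dnajc15, Dnajc18 and Hsph1). Without TS1 B, 9 did, from 0.0589 to 0.140: the same genes and also Cct8 and Dnaja1. Without TS2 A, 12 did, from 0.0751 to 0.231: these 9 with Dnajb14, Dnajc11 and Dnajc12. Without TS2 B, 11 did, from 0.0863 to 0.211, namely those 12 apart from Dnajb9. None of the 15 changed direction in these fits.

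In the cytosol, Hsc70 and Hsp90 were nearly level. Hspa8, which encodes the constitutive Hsc70, read 13.55 and 13.58 on the TS1 arrays and 13.50 and 13.53 on the TS2 arrays. The TS1 arrays lay just above the TS2 arrays, and the difference was -0.05 with a 95% interval of -0.27 to 0.17 (adjusted p = 0.771). Its 3 single-gene probe sets gave differences from -0.07 to -0.05. Hsp90aa1, the heat-inducible cytosolic Hsp90, read 13.03 and 13.07 in TS1 and 13.09 and 13.20 in TS2, with TS2 slightly above. The difference was 0.09 with an interval of -0.15 to 0.33 (adjusted p = 0.581), and its 3 probe sets ranged from 0.08 to 0.10. Hsp90ab1 and Hspa1b are not analysed here.

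The other cytosolic Hsp70 genes did not pass either. Hspa1a, the heat-inducible Hsp70, was low on every array, at 6.09 and 6.08 in TS1 and 6.19 and 6.18 in TS2 (difference 0.11, interval -0.11 to 0.32, adjusted p = 0.487). A probe set that the annotation assigns to Hspa1a and Hspa1b together, near-identical genes, read 8.10 and 8.52 in TS1 and 8.03 and 8.19 in TS2, a difference of -0.20, so the sign for the inducible pair was not settled. Hspa14, an Hsp70 that works at the ribosome, read 10.42 and 10.47 in TS1 and 10.23 and 10.26 in TS2 (difference -0.20, adjusted p = 0.204). Hspa2, best known from the testis, spread from 6.59 to 7.44 within TS1, wider than the gap between the lines (difference -0.12, adjusted p = 0.834). Hspa1l (5.38 to 5.53), Hspa12a (5.31 to 5.58) and Hspa12b (5.25 to 5.55) were dim on every array, with differences of -0.03, 0.17 and 0.20.

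Among the Hsp110 exchange factors 1 of 3 passed, with TS1 higher, beside 8.45% of all genes. Hsph1, the heat-inducible member, read 10.90 and 10.96 in TS1 and 10.43 and 10.54 in TS2. Both TS1 arrays were higher, by 1.36-fold (difference -0.45, SE 0.094, adjusted p = 0.0423). With renewed quantile normalization Hsph1 no longer passed. Hspa4 differed by -0.16 (adjusted p = 0.386) and Hspa4l by 0.11 (adjusted p = 0.557). Hspbp1, another exchange factor of Hsp70, read 9.49 and 9.86 in TS1 and 9.93 and 9.92 in TS2, and its spread within TS1 was larger than the distance to TS2 (adjusted p = 0.337).

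Genes that heat is known to raise did not move together. Besides Hsph1, Dnaja4 was 2.07-fold higher in TS1: it read 8.07 and 7.86 there and 6.98 and 6.86 in TS2 (difference -1.05, SE 0.12, adjusted p = 0.00773). Dnajb4 also leaned to TS1, by -0.26 (adjusted p = 0.148). Dnajb1, the classic Hsp40, leaned the other way, at 9.50 and 9.39 in TS1 and 9.74 and 9.89 in TS2 (difference 0.37, SE 0.10, adjusted p = 0.0817). Bag3, a partner of Hsp70 that heat shock factor 1 also raises, was 2.17-fold higher in TS2, with 8.24 and 7.74 in TS1 and 9.13 and 9.08 in TS2 (difference 1.12, SE 0.18, adjusted p = 0.021). Leaving out TS2 A or TS2 B ended this call. Of 6 members listed as heat-inducible (Hsph1, Hspa1a, Hsp90aa1, Dnaja4, Dnajb1 and Dnajb4), 2 passed, both higher in TS1. Over all genes 8.45% passed with TS1 higher. Of these 6 differences, 3 lay below 0 and 3 above. Of the 3 above 0, Hsp90aa1 and Hspa1a differed by 0.09 and 0.11. Hspb1, also known to be heat-inducible, was not on that list and differed by 0.08. Nor were Hspd1, Hspe1 and Dnajb6, which have a match to the 3-unit heat shock element (-0.41, -0.46 and 0.13). Dnaja1, with the shorter match printed above, was not listed either (-0.55). The even split of signs holds for this list only. Of 6 early response genes, Atf3, Egr1 and Fos were higher in TS2 (adjusted p = 0.00603, 0.00455 and 0.0316) and the other 3 did not pass. Over all genes 5.05% passed with TS2 higher. The summed signal of the 6 early response genes was 10.07 to 10.13 in TS1 and 10.36 on both TS2 arrays. Its part in the heat-inducible genes was not tested.

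**Figure D2:**
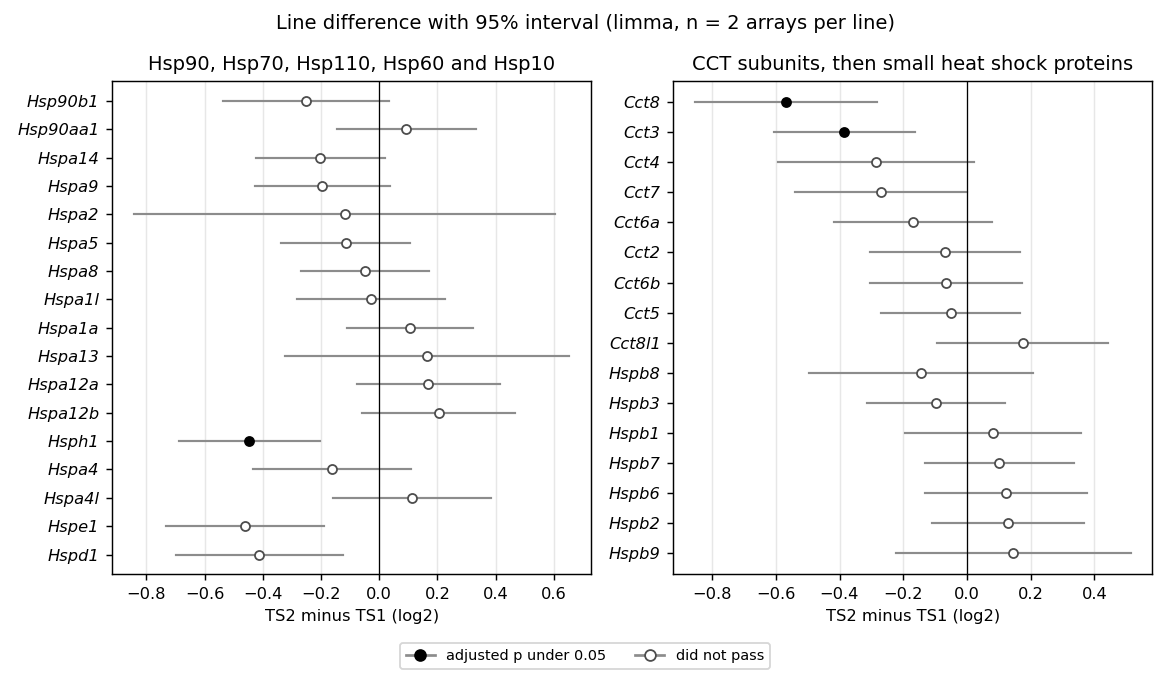
Each point is the line difference (log2, TS2 minus TS1) and each bar its 95% interval from limma (n = 2 arrays per line), for the Hsp90, Hsp70, Hsp110, Hsp60 and Hsp10 genes on the left and the CCT subunits and small heat shock genes on the right. Filled points passed an adjusted p of 0.05: Hsph1 (-0.45), Cct3 (-0.38) and Cct8 (-0.57).

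The CCT subunits leaned to TS1. CCT is a double ring of different subunits, and 7 of them, Cct2, Cct3, Cct4, Cct5, Cct6a, Cct7 and Cct8, each had a difference below 0, with a median of -0.27. In the series as a whole 47.3% of genes lay below 0, and 63.1% of the 3046 genes with a mean log2 intensity of 10 or more. Under renewed quantile normalization Cct5 turned to 0.0077. Passing genes were Cct8, the theta subunit, and Cct3, the gamma subunit. Cct8 read 11.30 and 11.51 in TS1 and 10.89 and 10.79 in TS2, 1.48-fold higher in TS1 (difference -0.57, SE 0.11, adjusted p = 0.0346). Cct3 read 12.18 and 12.23 in TS1 and 11.81 and 11.82 in TS2, 1.31-fold higher in TS1 (difference -0.38, SE 0.087, adjusted p = 0.0496). Cct3 did not pass after centring each array or renewed quantile normalization.

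The remaining ring subunits did not pass. The differences were -0.29 for Cct4 (adjusted p = 0.197), -0.27 for Cct7 (adjusted p = 0.17), -0.17 for Cct6a (adjusted p = 0.326), -0.07 for Cct2 (adjusted p = 0.69) and -0.05 for Cct5 (adjusted p = 0.751). Tcp1, the alpha subunit, which the rule on symbols does not take, read 12.24 and 12.54 in TS1 and 12.12 and 12.16 in TS2 (difference -0.25, adjusted p = 0.275). Cct5 stayed within 12.19 to 12.26 over the 4 arrays, with an interval of -0.27 to 0.17 for its difference. Cct6b, the testis form of the zeta subunit, and Cct8l1 were dim, at 4.46 to 4.61 and 4.27 to 4.57. Over all 9 genes of the CCT group 2 passed, both higher in TS1, and the median difference was -0.17. In the whole series 8.45% of genes passed with TS1 higher. Of 10 partner genes for this machine (Tcp1, prefoldin subunits and phosducin-like proteins) 0 passed by limma, and the median was -0.28. At an unadjusted p under 0.05 there were 1 with TS2 higher and 5 with TS1 higher. Over all 19938 genes these unadjusted counts were 2462 and 3400.

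Mitochondrial chaperones leaned to TS1 as well. Of 8 genes 2 passed, both higher in TS1, and 7 differences lay below 0. Over all genes 8.45% passed with TS1 higher and 47.3% lay below 0. Among genes with a mean log2 intensity of 10 or more these shares were 10.5% and 63.1%. The median of the mitochondrial group was -0.33, with a range of -0.42 to -0.24 when single arrays were left out. In this group 7 of 8 genes were also higher on TS1 B than on TS1 A, with a median of 0.17, and the part of that array in the result was not tested beyond leaving it out: without TS1 B the median was -0.24.

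Hspd1 and Hspe1, the chaperonin and its lid, which share the promoter region printed above, had differences of similar size. Hspd1 read 12.64 and 12.87 in TS1 and 12.33 and 12.36 in TS2, with both TS1 arrays higher (difference -0.41, SE 0.11, adjusted p = 0.0783). Hspe1 read 12.19 and 12.39 in TS1 and 11.83 and 11.84 in TS2, again with both TS1 arrays higher (difference -0.46, SE 0.11, adjusted p = 0.0515). In both genes TS1 B was the highest array, and TS2 varied little. Their second probe sets gave -0.39 for Hspd1 and -0.48 for Hspe1. Hspe1 lay next to the threshold and passed in 7 of the alternatives, among them without TS1 A (adjusted p = 0.0489), after centring (adjusted p = 0.0487) and with an intensity trend in the prior variance (adjusted p = 0.0213). Hspd1 passed with that trend (adjusted p = 0.0332).

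Hspa9, the mitochondrial Hsp70 (mortalin), which drives protein import, read 11.82 and 11.91 in TS1 and 11.69 and 11.65 in TS2 (difference -0.20, interval -0.43 to 0.04, adjusted p = 0.234). Dnajc11, a J-protein of the cristae, was 1.57-fold higher in TS1, at 9.85 and 9.89 there and 9.24 and 9.19 in TS2 (difference -0.66, SE 0.087, adjusted p = 0.0129). Dnajc15, of the inner membrane import motor, was 1.56-fold higher in TS1, at 11.73 and 11.99 against 11.35 and 11.09 (difference -0.64, SE 0.14, adjusted p = 0.0484). The spread between duplicates was wide in both lines for Dnajc15, and it did not pass after centring each array or renewed quantile normalization. Dnaja3 (Tid1), a partner of Hspa9, differed by -0.24 (adjusted p = 0.175). Dnajc19, a relative of Dnajc15 in the import motor, read 7.95 and 7.93 in TS1 and 7.90 and 7.88 in TS2, a difference of -0.05 that turned to 0.05 with renewed quantile normalization. Dnajc30 differed by 0.12 (adjusted p = 0.542).

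Most mitochondrial partner genes pointed the same way. Of 8, 3 passed, all higher in TS1, and all 8 differences lay below 0 (median -0.38). That of Hscb was only -0.0034, with overlapping arrays (adjusted p = 0.99). Over all genes 8.45% passed with TS1 higher and 47.3% lay below 0. Lonp1, the protease that clears misfolded matrix proteins, read 9.69 and 9.90 in TS1 and 9.03 and 8.99 in TS2 (difference -0.78, SE 0.11, adjusted p = 0.0139). Clpp, another matrix protease, differed by -0.70 (adjusted p = 0.0133) and Clpb, a disaggregase named here after its values were seen, by -0.53 (adjusted p = 0.0256). Trap1, the mitochondrial Hsp90, read 11.14 and 11.17 in TS1 and 10.83 and 10.68 in TS2 (difference -0.40, adjusted p = 0.0614). Without TS2 A or without TS2 B, neither Lonp1 nor Clpp passed.

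**Figure D3:**
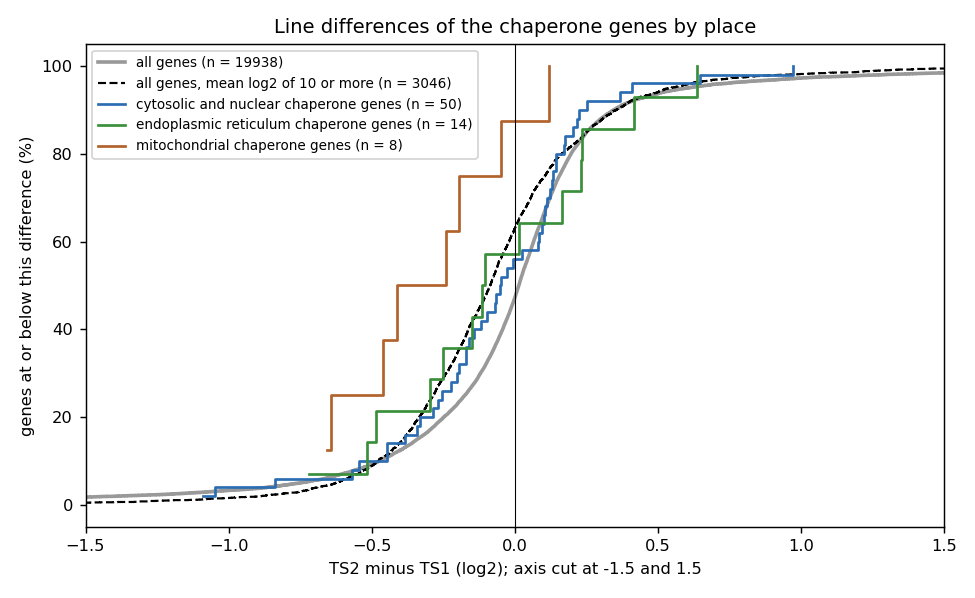
The curves give the share of genes (%, vertical axis) at or below each line difference (TS2 minus TS1, log2) for the chaperone genes of the cytosol and nucleus (50), the endoplasmic reticulum (14) and mitochondria (8), beside all 19938 genes and the 3046 genes with a mean log2 intensity of 10 or more. The mitochondrial curve reaches its median at -0.33, against -0.05 for the cytosol and nucleus and -0.11 for the endoplasmic reticulum, and the curves cross at their lower ends.

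In the endoplasmic reticulum the chaperone genes with a stress element did not pass, and called genes went both ways. Of 14 genes, 4 passed, 2 in each direction, and 10 did not, with a median of -0.11. Over all genes 13.5% passed. Hspa5 (BiP), the Hsp70 of this compartment, which holds the sensors of the unfolded protein response inactive, read 12.62 and 12.58 in TS1 and 12.49 and 12.47 in TS2 (difference -0.12, interval -0.34 to 0.10, adjusted p = 0.45). Hsp90b1 (Grp94), its Hsp90, read 12.48 and 12.71 in TS1 and 12.35 and 12.34 in TS2 (difference -0.25, adjusted p = 0.217). For both genes the TS1 arrays lay above the TS2 arrays by small steps. Dnajc3 (p58IPK), the third gene with a stress element, read 10.39 and 10.31 against 10.29 and 10.20 (difference -0.11, adjusted p = 0.529), and its 2 probe sets had identical values. Hspa13, a microsomal Hsp70, spread from 10.37 to 10.91 within TS2 (difference 0.17, adjusted p = 0.638).

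J-proteins of this compartment differed more. Dnajb9 (ERdj4), which helps BiP to silence the stress sensor Ire1, was 1.65-fold higher in TS1, at 8.19 and 8.14 against 7.27 and 7.62 (difference -0.72, SE 0.14, adjusted p = 0.034). The TS2 duplicates stood apart, and Dnajb9 did not pass after renewed quantile normalization. Dnajb11 (ERdj3), a secreted partner of BiP, read 10.47 and 10.71 in TS1 and 10.12 and 10.09 in TS2 (difference -0.48, SE 0.11, adjusted p = 0.057), and it passed without TS1 A (adjusted p = 0.0423). Dnajc18, a membrane J-protein, was 1.43-fold higher in TS1, at 8.54 and 8.45 against 7.98 on both TS2 arrays (difference -0.52, SE 0.089, adjusted p = 0.0256). This call, too, was lost with renewed quantile normalization.

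Of the other membrane J-proteins here, Dnajb14 and Dnajc14 were higher in TS2. Dnajb14 read 8.32 and 8.45 in TS1 and 9.03 and 9.02 in TS2, 1.55-fold higher in TS2 (difference 0.63, SE 0.094, adjusted p = 0.0173). A pair of probe sets assigned to Dnajb14 and Pin4 together gave the opposite sign, -0.50 and -0.51, so the direction of Dnajb14 rests on the single-gene probe set. Dnajc14 read 9.27 and 9.28 in TS1 and 9.73 and 9.65 in TS2, 1.33-fold higher in TS2 (difference 0.41, SE 0.088, adjusted p = 0.0431). The remaining members were Dnajc1 (difference 0.24), Dnajc10 (ERdj5, a reductase, 0.23), Dnajc16 (0.01), Dnajb12 (-0.15) and Dnajc25 (-0.30), with adjusted p from 0.11 to 0.948.

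Other folding genes of the endoplasmic reticulum also went both ways. Of 14 partner genes there, 1 was called higher in TS2 and 2 higher in TS1, beside 5.05% and 8.45% of all genes. Herpud1, of the degradation machinery, was 1.69-fold higher in TS2, at 10.38 and 10.29 in TS1 and 11.21 and 10.98 in TS2 (difference 0.76, SE 0.11, adjusted p = 0.0182). Creld2, induced in the unfolded protein response, was higher in TS1, at 11.53 on both arrays against 10.86 and 10.89 (difference -0.65, SE 0.085, adjusted p = 0.0124). Hyou1, the large exchange factor of BiP, was higher in TS1 by 1.37-fold (difference -0.45, adjusted p = 0.035). Herpud1 lost its call without TS1 B or TS2 A, Creld2 without TS2 A or TS2 B, and Hyou1 with any of the 4 arrays left out. Among 5 signalling genes of the unfolded protein response 0 passed by limma (1 at an unadjusted p under 0.05, Atf4, higher in TS1). Over all 19938 genes 3400 had an unadjusted p under 0.05 with TS1 higher. Xbp1, a transcription factor of that response, differed by 0.04 (interval -0.25 to 0.32, adjusted p = 0.88) and Ddit3 (Chop) by -0.09 (interval -0.52 to 0.35, adjusted p = 0.797).

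**Figure D4:**
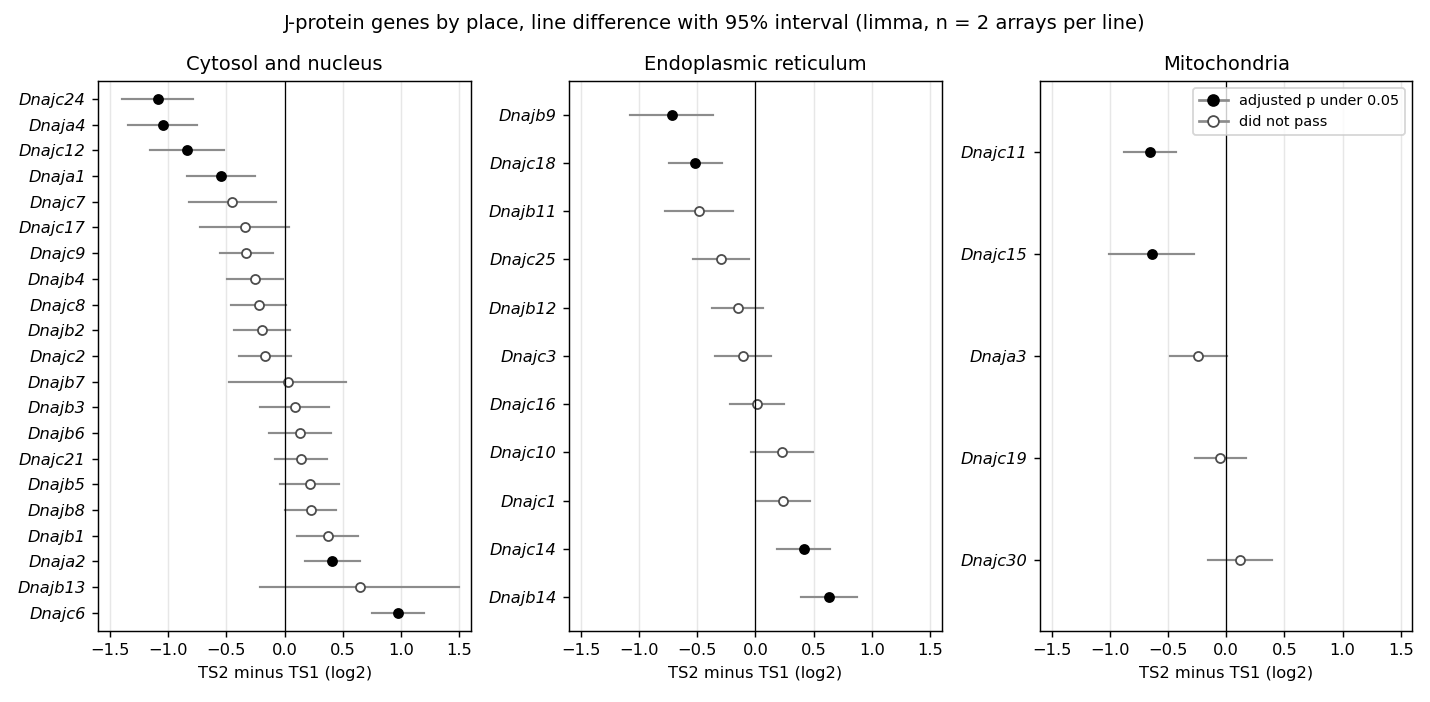
Each point is the line difference of a J-protein gene (log2, TS2 minus TS1) and each bar its 95% interval from limma (n = 2 arrays per line), for the cytosol and nucleus (21 genes), the endoplasmic reticulum (11) and mitochondria (5). Filled points passed an adjusted p of 0.05: 2 higher in TS2 and 4 higher in TS1 in the cytosol and nucleus, 2 and 2 in the endoplasmic reticulum, and 0 and 2 in mitochondria.

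J-proteins of the cytosol and nucleus held the largest called differences. Of 21 genes, 6 passed, with 2 more abundant in TS2 and 4 in TS1, and 15 did not. Over all genes 5.05% passed with TS2 higher and 8.45% with TS1 higher. Dnajc24, which serves the synthesis of diphthamide on elongation factor 2, was 2.13-fold higher in TS1, at 9.38 and 9.33 against 8.40 and 8.14 (difference -1.09, SE 0.12, adjusted p = 0.00766). Dnajc12, a helper of the aromatic amino acid hydroxylases, was 1.79-fold higher in TS1, at 7.75 and 7.47 against 6.81 and 6.74 (difference -0.84, SE 0.12, adjusted p = 0.017). Dnajc6 (auxilin), which strips clathrin from vesicles, was higher in TS2, at 5.41 and 5.45 in TS1 and 6.37 and 6.43 in TS2 (difference 0.97, SE 0.087, adjusted p = 0.00427). Its TS1 arrays lay below the olfactory receptor level of 5.79 (defined further on), and against that level it was at least 1.52-fold higher in TS2.

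Dnaja1 and Dnaja2, J-proteins that both work with Hsc70, went in opposite directions. Dnaja1 read 11.48 and 11.72 in TS1 and 11.02 and 11.09 in TS2, 1.46-fold higher in TS1 (difference -0.55, SE 0.11, adjusted p = 0.0407). Dnaja2 read 10.95 and 11.06 in TS1 and 11.43 and 11.40 in TS2, 1.33-fold higher in TS2 (difference 0.41, SE 0.092, adjusted p = 0.0496). In both genes the arrays of the lines lay apart. The second Dnaja1 probe set gave -0.82, at 8.75 and 9.32 in TS1 and 8.21 and 8.23 in TS2, while a probe set assigned to Dnaja1 and Mir207 gave 0.06.

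Of the J-proteins that did not pass, Dnajc7 (Tpr2), which links Hsp70 to Hsp90, read 10.59 and 10.28 in TS1 and 9.88 and 10.09 in TS2 (difference -0.45, adjusted p = 0.119). Dnajc9, a histone chaperone, differed by -0.33 (adjusted p = 0.0762), and the ribosome-associated Dnajc2 by -0.17 (adjusted p = 0.276). Dnajc8 and Dnajc17, both of the splicing machinery, differed by -0.22 and -0.34, and Dnajc21, of ribosome assembly, by 0.14. Dnajb6, known for suppressing aggregation, read 7.01 to 7.26 on its single-gene probe set (difference 0.13, adjusted p = 0.475). The 4 probe sets shared with Gm4247 were far brighter, at 11.23 to 11.97, and gave 0.17 to 0.21, the same sign.

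Some J-proteins spread widely within TS1. Dnajc22 read 7.44 and 6.27 there and 5.61 and 5.77 in TS2, a measured difference of -1.17 with an SE of 0.38 (adjusted p = 0.119). Both TS2 arrays lay below the olfactory receptor level of 5.79, so the size of this difference is not settled. It passed without TS1 B (difference -1.75, adjusted p = 0.00779). Dnajb13, of cilia and sperm tails, read 7.60 and 6.59 in TS1 and 7.82 and 7.66 in TS2 (difference 0.65, SE 0.33, adjusted p = 0.28) and passed without TS1 A (difference 1.15, adjusted p = 0.0165). For these genes 1 TS1 array decides the size of the difference.

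J-proteins of vesicles, endosomes and other places gave no call among 8 genes by limma (1 at an unadjusted p under 0.05, Dnajc22). Over all 19938 genes 5862 had an unadjusted p under 0.05. Dnajc5, the cysteine string protein, read 10.60 and 10.45 in TS1 and 10.58 and 10.46 in TS2, a difference of -0.01 that turned to 0.01 after centring. Dnajc13 (Rme8), which shapes endosomes, was read by 15 probe sets, whose differences ran from -0.02 to 0.24. Its brightest gave 10.90 and 10.81 in TS1 and 11.03 and 10.95 in TS2 (difference 0.13, interval -0.10 to 0.37, adjusted p = 0.411). Dnajc4 differed by 0.20 and Dnajc27, a Rab-like GTPase with a J domain, by 0.08.

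Of the small heat shock genes 0 of 7 passed by limma (0 at an unadjusted p under 0.05, beside 5862 of all 19938 genes). Hspb1 (Hsp25) was dim and read 5.39 and 5.24 in TS1 and 5.47 and 5.33 in TS2 (difference 0.08, interval -0.19 to 0.36, adjusted p = 0.685). Hspb8, which works with Bag3, read 6.04 and 5.71 against 5.78 and 5.69 (difference -0.14, adjusted p = 0.562), so its arrays overlapped while Bag3 differed. Hspb6 (Hsp20) lay at 7.87 to 8.11, and Hspb2, Hspb3, Hspb7 and Hspb9 lay between 5.22 and 6.99 on every array.

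To place such dim values, olfactory receptor genes, whose receptors serve smell, were taken as a reference after the values were seen. Over 1027 of them, 95% of array values lay at or below 5.79. By mean, 14 of the 81 chaperone genes lay there too: Cct6b, Cct8l1, Dnajb3, Dnajb7, Dnajc5b, Dnajc5g, Dnajc28, Hspa1l, Hspa12a, Hspa12b, Hspb1, Hspb3, Hspb7 and Hspb11. None of the 14 passed by limma (0 at an unadjusted p under 0.05, beside 5862 of all 19938 genes). At such values a difference was not detectable here rather than absent. The other 67 genes lay above it by mean. Dnajc6 did so through its TS2 arrays alone, Dnajc22 through its TS1 arrays alone and Hspb8 through TS1 A alone.

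The bright end of the family leaned to TS1. Of 27 members with a mean log2 intensity of 10 or more, 22 had a difference below 0 and the median was -0.20, against 63.1% below 0 and a median of -0.09 for all 3046 genes as bright. Among these 27, 1 was called higher in TS2 and 5 higher in TS1. Of all bright genes 5.75% were called higher in TS2 and 10.5% higher in TS1. No set test was run, so nothing is called particular to the chaperones from this.

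Of 65 partner genes listed, 64 were measured, and 11 passed (17.2%), with TS2 higher for 2 and TS1 higher for 9. The other 53 did not pass, and the median of the 64 was -0.19. Over all genes 13.5% passed, 5.05% with TS2 higher and 8.45% with TS1 higher. Among cytosolic partners, Bag2, an inhibitor of the ubiquitin ligase Chip, read 9.42 and 9.37 in TS1 and 8.68 and 8.61 in TS2 (difference -0.75, SE 0.090, adjusted p = 0.00959). Bag5, a relative, differed by -0.71 (adjusted p = 0.0274), so Bag2 and Bag5 were higher in TS1 while Bag3 was higher in TS2. Both lost their calls without TS2 B, Bag2 also without TS2 A and Bag5 also without TS1 A or TS1 B. Bag1 and Fkbp4, named here after their values were seen, were also called higher in TS1. Bag1 differed by -0.55 (adjusted p = 0.0496) and Fkbp4 by -0.61 (adjusted p = 0.0353). Bag4 and Bag6 did not pass (differences -0.22 and -0.35). Stip1 (Hop), which bridges Hsp70 and Hsp90, read 11.99 and 12.20 in TS1 and 11.80 and 11.86 in TS2 (difference -0.26, adjusted p = 0.201). Hsf1 is not analysed here.

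**Figure D5:**
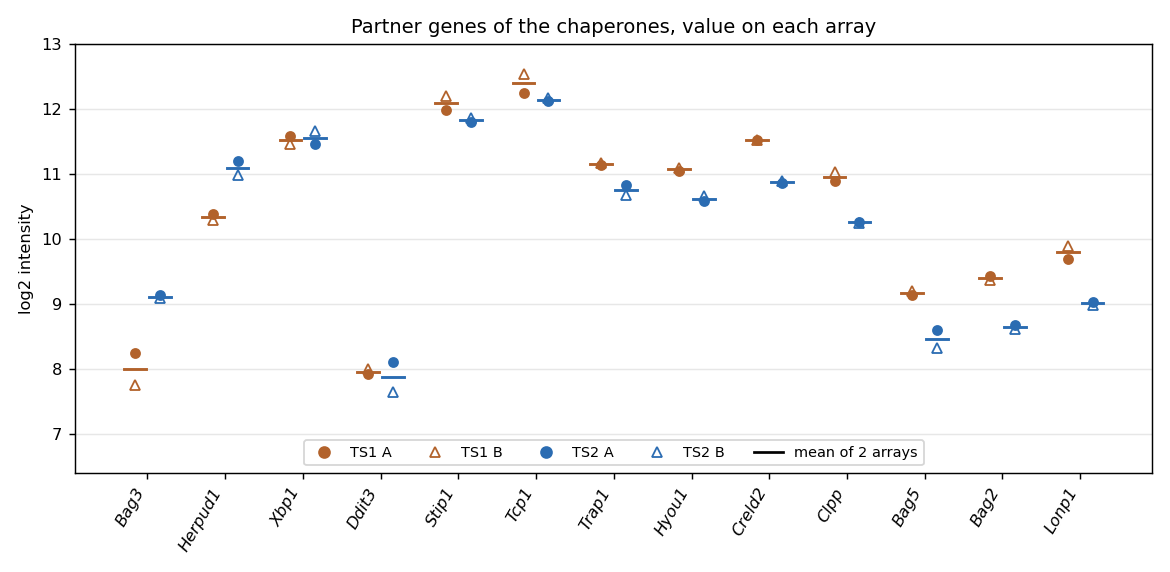
The log2 intensity of 13 partner genes of the chaperones is plotted for each array, TS1 in orange and TS2 in blue, with circles for duplicate A, open triangles for duplicate B and bars for the mean of 2 arrays. Bag3 and Herpud1 are higher in TS2, Hyou1, Creld2, Clpp, Bag5, Bag2 and Lonp1 are higher in TS1, and Xbp1, Ddit3, Stip1, Tcp1 and Trap1 did not pass.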

How the data were processed

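RNA of 4 samples was read on Affymetrix arrays. Per the submitters' processing notes, Expression Console and RMA were used, and each deposited value is a linear intensity (5.98 to 23157), 1 per probe set and array. RMA normalizes between arrays, so a shift shared by most genes is removed. The plan assumed log2 values, so log2 of the deposited intensities was taken. Of 35556 probe sets, 21789 named 1 gene, 1621 several and 12146 none. Symbols were updated through RefSeq (GRCm38.p6), members kept the annotation's symbol, and the brightest probe set stood for each of 19938 genes. All 4 arrays entered one limma 3.58.1 model in R 4.3.3 (lmFit, eBayes), with the line as factor, 2 residual and 3.03 prior degrees of freedom, and it was tested on simulated data. The members, their places and the lists were chosen with earlier results of these data known. Named in full were called members, the large chaperone classes, CCT subunits, the 3 brightest J-proteins of each place, fixed partner genes and up to 5 called partners per direction. Alternatives were the duplicate letter as a block, left-out arrays, prior variances, normalizations, dim filters, averaged probe sets, no moderation and a stricter threshold. Scan days and detection calls are not analysed here.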

Additional observations from a re-analysis of the deposited data

How the results depend on the processing

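With only 2 arrays per line the calls are fragile. None of the 15 called chaperone genes changed direction with single arrays left out, centring, renewed quantile normalization or averaged probe sets. Leaving out an array could not turn them, since their arrays did not overlap between the lines. Averaging could alter only Dnaja1 among them. The other alternatives leave a difference as it is, and Dnajc6 was not tested with the dimmest 50% of probe sets left out. Leaving out single arrays left 1 to 3 chaperone genes higher in TS2, 2 to 8 higher in TS1, 1 to 9 called partner genes and 979 to 2198 called genes in all, with the CCT median between -0.23 and -0.11. Without moderated variances 0 chaperone genes higher in TS2, 0 higher in TS1, 0 partner genes and 0 of all genes passed, with 23 chaperone genes and 4156 genes at an unadjusted p under 0.05. At an adjusted p of 0.01 these counts were 1, 2, 1 and 807. Renewed quantile normalization gave 6 chaperone genes higher in TS1, an endoplasmic reticulum median of -0.042 and a CCT median of -0.12. Centring the arrays gave a CCT median of -0.15, and leaving out the dimmest 30% or 50% of probe sets gave -0.27. With 50% left out, 20 partner genes passed.

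The labels do not say whether the letters A and B mark a shared batch. Across genes, the B minus A steps of the lines correlated at -0.029 (Pearson's r, a description). A batch effect on some of the genes was not tested. With the letter as a replicate block, TS2 was higher for 2 chaperone genes and TS1 for 4, and 6 partner genes and 1666 genes in all passed.

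Direction changed for some genes that did not pass. With single arrays left out, the difference ran from -0.54 to 0.30 for Hspa2, -0.032 to 0.20 for Dnajb3, -0.23 to 0.28 for Dnajb7, -0.21 to 0.37 for Dnajc27, -0.084 to 0.064 for Dnajc5, -0.37 to 0.35 for Hspbap1 and -0.31 to 0.020 for Hspb8. It ran from -0.11 to 0.049 for Hspa1l, -0.040 to 0.067 for Dnajc16, -0.053 to 0.12 for Hspb11, -0.068 to 0.14 for Xbp1, -0.11 to 0.44 for Hspa13 and -0.32 to 0.15 for Ddit3. Centring turned Dnajc5 to 0.014 and Hspbap1 to 0.018. Renewed quantile normalization turned Cct5 to 0.0077, Dnajc19 to 0.053, Dnajc5 to 0.058, Hspbap1 to 0.084 and Ddit3 to 0.0093. The cause was not tested.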
